A study of Mus musculus with 12 samples.

Results

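Serpins are a family of proteins that mostly inhibit serine proteases, and 8 of them are described here in primary murine cardiomyocytes: Serpina3n, Serpinb2, Serpinb1a, Serpinb6a, Serpinb9, Serpine2, Serpinh1 and Serpinf1. The members were taken from the deposited table by gene symbol, and they are 8 of the 35 serpin genes among its 22915 genes. Serpina3n and Serpinb2 were chosen by their rises over the PBS control after cytokine treatment, which were among the largest, so their values are given as a description without a test, also between cytokines, where the same libraries were compared. The other 27 serpin genes of the table, 10 of them with enough signal to be tested, served for comparison. All 8 members had enough signal to be tested.

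Heart muscle cells of adult male C57/Bl6 mice, 12 weeks old, were isolated, cultured in serum-free medium and treated for 24 h under normoxia. The control received the solvent PBS, and the other conditions received murine LIF (mLIF), which acts in these cells through the LIF receptor (LIFR), murine OSM (mOSM), which acts through the OSM receptor (OSMR), or hlOSM, a murine OSM carrying the human AB loop, which acts through both receptors. The labels give 25 ng/ml for each protein, whereas the methods of the study state a slightly lower concentration. Each condition has 3 sequenced total RNA libraries, which makes 12, and the values are normalized counts, that is, reads per gene scaled between libraries by the authors and rounded to whole numbers. Whether the 3 libraries of a condition came from separate hearts is not stated in the sources used here, so p-values measure only the spread between these libraries.

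An inhibitory serpin presents an exposed loop to its protease, is cleaved, and folds over while holding the enzyme trapped in an inactive complex. Clade A and most clade E serpins are secreted and act on proteases of plasma and the extracellular space, whereas clade B serpins lack a classical signal peptide and mainly protect the cytosol from proteases of granules and lysosomes. Some serpins no longer inhibit proteases, such as the collagen chaperone Serpinh1 and the secreted factor Serpinf1. LIFR and OSMR both pair with gp130 and activate STAT proteins, whose dimers bind sites of the form TTCNNNGAA, and members of the Serpina3 cluster are known acute-phase genes of liver and brain.

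Sequences upstream of the start site are shown for the genes on which the results turn or whose window holds a STAT-type motif. They are the 250 bases before the RefSeq start on GRCm38.p6, read 5′ to 3′ on the strand of the gene. The windows lie at chr12:104406458-104406707 on the + strand for Serpina3n, at chr12:104262872-104263121 on the + strand for its cluster neighbour Serpina3i, at chr1:107511173-107511422 on the + strand for the first of the Serpinb2 starts, and at chr13:34002795-34003044 on the - strand for the first Serpinb6a start. Capitals mark TTCNNNGAA in Serpina3i and Serpinb6a, the bases aligned with it in Serpina3n, and TGANTCA, the form bound by AP-1 factors, in Serpinb2.
Serpina3n: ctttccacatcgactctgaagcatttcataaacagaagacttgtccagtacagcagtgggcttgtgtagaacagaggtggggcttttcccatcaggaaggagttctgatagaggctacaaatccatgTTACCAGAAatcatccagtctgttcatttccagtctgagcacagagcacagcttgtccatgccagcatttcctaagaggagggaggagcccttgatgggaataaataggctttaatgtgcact
Serpina3i: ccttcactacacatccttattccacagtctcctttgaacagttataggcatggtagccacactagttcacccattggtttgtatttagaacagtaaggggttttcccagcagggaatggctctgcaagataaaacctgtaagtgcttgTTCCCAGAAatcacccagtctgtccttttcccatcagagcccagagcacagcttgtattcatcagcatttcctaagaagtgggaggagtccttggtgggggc
Serpinb2: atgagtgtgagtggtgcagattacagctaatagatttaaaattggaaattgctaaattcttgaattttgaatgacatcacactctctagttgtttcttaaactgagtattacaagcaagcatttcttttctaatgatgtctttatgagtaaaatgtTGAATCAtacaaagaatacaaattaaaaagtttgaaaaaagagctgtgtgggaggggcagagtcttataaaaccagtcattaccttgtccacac
Serpinb6a: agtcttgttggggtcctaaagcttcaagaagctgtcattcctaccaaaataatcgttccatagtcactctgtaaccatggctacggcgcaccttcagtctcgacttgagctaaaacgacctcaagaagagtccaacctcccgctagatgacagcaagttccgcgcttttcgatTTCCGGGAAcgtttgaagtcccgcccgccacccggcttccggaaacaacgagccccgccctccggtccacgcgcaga

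Windows were found for 7 of the 8 members, 9 windows in all, and none for Serpinb1a. Both motifs read the same on either strand. TTCNNNGAA occurred in 2 of these 9 windows, 1 of Serpinb6a and 1 of Serpinb2, against 7.02% of 32851 windows of the same length. In Serpinb6a it read TTCCGGGAA at -77 to -69 from the start and thereby also matched the stricter form TTCCNGGAA, which 0.913% of all windows hold. In Serpinb2 it read TTCCAAGAA and was found only before the second annotated start, at chr1:107511433-107511441, which lies inside the first exon (chr1:107511423-107511478) of the gene as annotated. The Serpinb2 window printed above held TGAATCA at -94 to -88, and 6.75% of all windows hold TGANTCA.

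The Serpina3n window held no TTCNNNGAA, whereas that of Serpina3i read TTCCCAGAA at -102 to -94. Aligned end to end, the windows of Serpina3i and Serpina3n were identical at 173 of 222 aligned positions (77.93%). The Serpina3n bases facing the Serpina3i motif read TTACCAGAA at -123 to -115 and differed from it by the single substitution C3A, in which the Serpina3i base comes first and the position counts from the 5′ end of the motif. These matches describe letters in the sequence and do not show that a factor was bound.

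Totals of the 12 libraries lay between 2745748 and 2911891 on the normalized scale, and the number of reads behind a value is unknown. All 8 defining genes of cardiomyocytes were measured, with sums of 46904 to 48580 in PBS, 40629 to 42384 with mLIF, 32993 to 37055 with mOSM and 33900 to 36309 with hlOSM, and 6 of the 8 fell with either OSM. Genes of other heart cells were present as well. Summed endothelial markers were 1133 to 1171 in PBS, 1104 to 1154 with mLIF, 1372 to 1539 with mOSM and 1344 to 1474 with hlOSM. Of these 8 genes, 6 and 5 were raised by mOSM and hlOSM, and 1 was lowered by each. Summed smooth muscle and pericyte markers went from 615 to 826 in PBS to 318 to 386 and 314 to 335 with mOSM and hlOSM, with 5 of 6 lowered by each. Summed fibroblast markers lay between 2110 and 2885 in all libraries, with 2 of 8 raised and 3 lowered by mOSM and 3 raised and 5 lowered by hlOSM, and summed macrophage markers between 340 and 442, with Cd68 raised by each cytokine and 2 of 6 lowered by hlOSM. Of all tested genes, mLIF, mOSM and hlOSM raised 5.47%, 15.4% and 18.2% and lowered 4.44%, 15.8% and 19.8%. Mesothelial markers summed to 27 or less and neutrophil markers to 4 or less in every library, and no gene of either list was tested. Only 2 of the 5 neutrophil markers were in the deposited table, since S100a8, S100a9 and Retnlg had no row under these symbols. The part of these other cells in the serpin values was not tested, and in bulk RNA fewer cells of a type and less RNA per cell cannot be told apart.

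Serpina3n, a secreted inhibitor of granule proteases such as granzyme B and cathepsin G and a member of the acute-phase cluster on chromosome 12, was higher in every cytokine library than in any PBS library and had its highest means with the OSM proteins. The gene (ENSMUSG00000021091, chr12:104406729-104414329, + strand, mm10) had normalized counts of 44, 35 and 16 in PBS and of 140, 132 and 188 with mLIF. With mOSM the values were 265, 328 and 362, and with hlOSM they were 283, 301 and 458. Neither the PBS nor the mLIF libraries overlapped with any other condition, whereas those of mOSM and hlOSM lay across each other. In either direction, 30.3%, 40.1% and 47.0% of all tested genes were likewise apart from PBS with mLIF, mOSM and hlOSM. From mLIF, 27.1% and 31.7% were apart with mOSM and hlOSM. Means were 31.7 ± 14.3 (SD, n = 3) in PBS, 153 ± 30.3 with mLIF, 318 ± 49.2 with mOSM and 347 ± 96.3 with hlOSM.

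On the log2(value + 1) scale Serpina3n stood above PBS by 2.34 under mLIF, 3.39 under mOSM and 3.49 under hlOSM (SE 0.23). Among 13184 genes tested these were the 6th, 23rd and 22nd largest rises. The third PBS library was the lowest, and without it the differences were 1.92, 2.98 and 3.08. Its log2 mean stood 1.05 higher with mOSM than with mLIF (SE 0.23) and 1.16 higher with hlOSM than with mLIF. Between hlOSM and mOSM the difference was 0.10, with a 95% interval from -0.38 to 0.59.

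Serpinb2, known as plasminogen activator inhibitor type 2 and found largely inside cells, had the largest differences between the OSM proteins and mLIF among the 8 members. The gene (ENSMUSG00000062345, chr1:107511423-107535478, + strand) had 11, 5 and 6 normalized counts in PBS and 14, 11 and 16 with mLIF. With mOSM it reached 141, 231 and 174, and with hlOSM 126, 191 and 158. The PBS and mLIF libraries shared the value 11 at their border, whereas every OSM library lay far above both. Means were 7.33 ± 3.21 (SD, n = 3) in PBS, 13.7 ± 2.52 with mLIF, 182 ± 45.5 with mOSM and 158 ± 32.5 with hlOSM.

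Against PBS, Serpinb2 stood 0.87 higher with mLIF on the log2 scale, 4.49 with mOSM and 4.30 with hlOSM (SE 0.22), the 145th, 7th and 7th largest rises. Since PBS values were low, these sizes depend on the pseudocount, and with 5 in place of 1 the OSM differences were 3.93 and 3.74. The log2 mean of Serpinb2 stood 3.63 higher with mOSM than with mLIF (SE 0.22) and 3.44 higher with hlOSM than with mLIF. hlOSM and mOSM differed by -0.19, with a 95% interval from -0.65 to 0.27. Of the exonic bases of Serpinb2, 12.4% are shared with Serpinb10 on the same strand, and reads that fit both genes were left out of the counts.

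**Figure D1:**
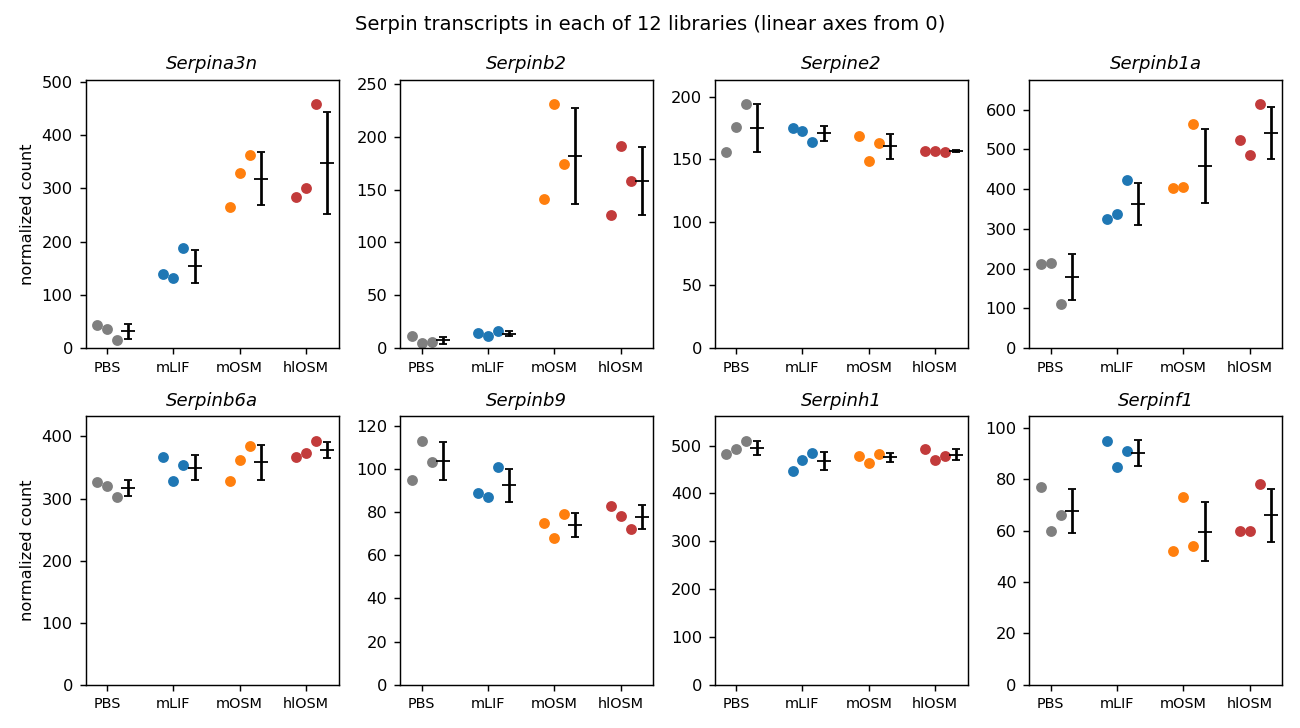
Normalized counts of the 8 members in each of the 12 libraries (points, by condition) with the mean and SD of 3 libraries (bars), each panel on its own linear axis from 0. Serpina3n is lowest in PBS and highest with the OSM proteins, Serpinb2 is at 16 or less in PBS and mLIF and at 126 or more in all OSM libraries, and Serpinh1 lies between 447 and 510 throughout.

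Among the other 6 members, the clade B inhibitor of neutrophil elastase, cathepsin G and proteinase 3, Serpinb1a, was raised by every cytokine, Serpinb6a was raised slightly by the OSM proteins, and Serpinb9 was lowered by them. mLIF raised 1 and lowered 0 of the 6, against 5.47% of all tested genes raised and 4.44% lowered. mOSM raised 2 and lowered 1, with 15.4% of all genes raised and 15.8% lowered, and hlOSM likewise raised 2 and lowered 1, with 18.2% raised and 19.8% lowered. Median log2 differences of the 6 from PBS were 0.05, -0.09 and -0.04 with mLIF, mOSM and hlOSM, while those of all tested genes were within 0.01 of 0. Of all tested genes, 14.7%, 20.2% and 22.7% had every library above every PBS library with mLIF, mOSM and hlOSM. For 15.6%, 19.9% and 24.3% every library lay below.

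Serpinb1a (ENSMUSG00000044734, chr13:32842092-32851185, - strand) had 211, 215 and 111 normalized counts in PBS, 325, 338 and 422 under mLIF, 404, 406 and 565 under mOSM and 524, 486 and 614 under hlOSM. All cytokine libraries lay above all PBS libraries, and the third PBS library was again the lowest. The means were 179 ± 58.9 (SD, n = 3), 362 ± 52.7, 458 ± 92.4 and 541 ± 65.7. The rise over PBS was 1.06 on the log2 scale with mLIF (SE 0.17, adjusted p = 0.000499), 1.40 with mOSM (adjusted p = 1.60e-06) and 1.65 with hlOSM (adjusted p = 1.14e-07). Without the third PBS library the rises were 0.75, 1.08 and 1.33, and all 3 calls held.

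Between cytokines, Serpinb1a was higher with hlOSM than with mLIF by 0.58 (SE 0.17, adjusted p = 0.0217). That call was lost without mLIF replicate 1 (adjusted p = 0.0961), mLIF replicate 2 (0.0810) or hlOSM replicate 3 (0.104) and in the robust fit (0.190). The difference of 0.33 between mOSM and mLIF did not pass (adjusted p = 0.248, and from 0.0305 to 0.650 over the alternatives), and it passed only without the third PBS library or with only the libraries compared. For hlOSM against mOSM it was 0.25, with an interval from -0.11 to 0.61.

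Serpinb6a, a cytosolic inhibitor of cathepsin G and related proteases (ENSMUSG00000060147, chr13:33917918-34002794, - strand), had 327, 320 and 302 normalized counts in PBS and 367, 328 and 354 with mLIF. With mOSM the values were 328, 362 and 385, and with hlOSM 367, 374 and 393. The cytokine libraries lay above all PBS libraries, in some cases by a single unit. The mean of 316 ± 12.9 (SD, n = 3) in PBS stood against 349.7 ± 19.9, 358 ± 28.7 and 378 ± 13.5. The rise was 0.26 with hlOSM on the log2 scale (SE 0.07, adjusted p = 0.00451). With mOSM it was 0.18 (adjusted p = 0.0495), a call lost in 14 of 21 alternatives, among them the replicate block (0.0885) and 10 of the 12 fits that leave out a library (every one but those without mOSM replicate 1 or hlOSM replicate 3). With mLIF the difference was 0.14 (adjusted p = 0.182). Genes on the other strand, among them Nqo2 and Ripk1, cover 29.3% of its exonic bases, and since the strand setting of the counting is not stated, reads from either strand may not have been told apart.

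Serpinb9, which inhibits granzyme B in the cytosol (ENSMUSG00000045827, chr13:33003250-33017957, + strand), went the other way. Its normalized counts were 95, 113 and 103 in PBS, 89, 87 and 101 under mLIF, 75, 68 and 79 under mOSM and 83, 78 and 72 under hlOSM. Every OSM library lay below every PBS and mLIF library. Means were 104 ± 9.02 (SD, n = 3), 92.3 ± 7.57, 74.0 ± 5.57 and 77.7 ± 5.51. It fell by 0.48 on the log2 scale with mOSM (SE 0.11, adjusted p = 0.00125) and by 0.41 with hlOSM (adjusted p = 0.00367), calls that held under every alternative. With mLIF the difference was -0.16 (adjusted p = 0.335), and mOSM against mLIF gave -0.32 (adjusted p = 0.0543, under the threshold only with quantile normalization or without hlOSM replicate 3).

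Serpinf1 encodes the pigment epithelium-derived factor, a secreted non-inhibitory serpin known for restraining vessel growth, and it was the only member whose mean was highest with mLIF. The gene (ENSMUSG00000000753, chr11:75409769-75422701, - strand) had 77, 60 and 66 normalized counts in PBS, 95, 85 and 91 under mLIF, 52, 73 and 54 under mOSM and 60, 60 and 78 under hlOSM. The mLIF libraries lay above all others, while PBS, mOSM and hlOSM overlapped. Means were 67.7 ± 8.62 (SD, n = 3), 90.3 ± 5.03, 59.7 ± 11.6 and 66.0 ± 10.4.

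Serpinf1 was lower with mOSM than with mLIF by 0.61 (log2 difference -0.61, SE 0.14, adjusted p = 0.00447). With hlOSM the difference from mLIF was -0.46 (adjusted p = 0.0250), a call lost with the replicate block (0.0553) and without mLIF replicate 1, mLIF replicate 3, hlOSM replicate 1 or hlOSM replicate 2 (up to 0.105). Against PBS none of its differences passed. With mLIF it was 0.42 (adjusted p = 0.0568, and from 0.0258 to 0.190 over 21 alternatives, 5 of which passed), with mOSM -0.19 (adjusted p = 0.326) and with hlOSM -0.04 (adjusted p = 0.848).

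Serpinh1 and Serpine2 passed no test. Serpinh1, which helps procollagen fold in the endoplasmic reticulum (ENSMUSG00000070436, chr7:99345376-99353239, - strand), had 482, 492 and 510 normalized counts in PBS, 447, 470 and 484 under mLIF, 479, 464 and 483 under mOSM and 493, 470 and 479 under hlOSM. The 95% intervals of its log2 differences from PBS ran from -0.20 to 0.03 with mLIF, from -0.17 to 0.06 with mOSM and from -0.15 to 0.07 with hlOSM, which makes it the most closely bounded member. Serpine2, the thrombin and urokinase inhibitor protease nexin-1 (ENSMUSG00000026249, chr1:79794197-79861180, - strand), had 156, 176 and 194 in PBS, 175, 173 and 164 under mLIF, 169, 149 and 163 under mOSM and 157, 157 and 156 under hlOSM. Its differences from PBS were -0.03, -0.12 and -0.16 (SE 0.08, adjusted p = 0.840, 0.273 and 0.144), and only without PBS replicate 1 did that with hlOSM pass (0.0409).

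**Figure D2:**
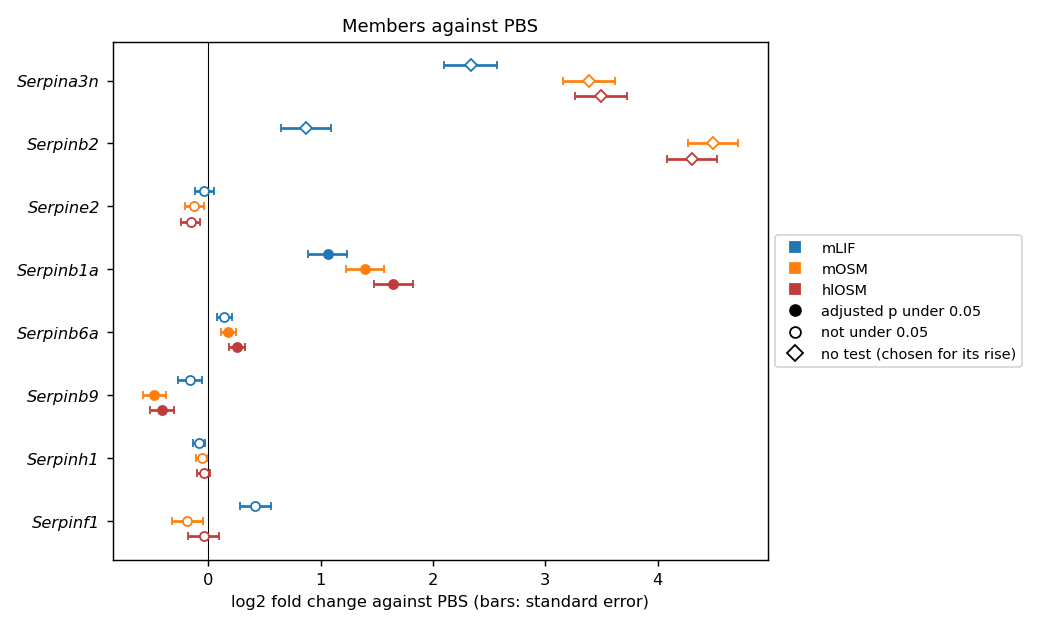
Log2 fold change of each member against PBS (points) with its standard error (bars) for mLIF, mOSM and hlOSM. Filled circles mark adjusted p under 0.05, and diamonds mark Serpina3n and Serpinb2, which carry no test. The OSM points of Serpinb2 are at 4.49 and 4.30 while its mLIF point is at 0.87.

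Between mLIF and the OSM proteins few of the 6 members other than Serpina3n and Serpinb2 passed the test, and none passed it between hlOSM and mOSM. Against mLIF, mOSM raised 0 and lowered 1 of the 6, where 6.05% of all genes were raised and 5.76% lowered, and hlOSM raised 1 and lowered 1, where 7.42% were raised and 9.22% lowered. The lowered gene was Serpinf1 in both, and the raised gene was Serpinb1a. Without mLIF replicate 1 hlOSM raised and lowered 0 of the 6 against mLIF. Between hlOSM and mOSM, limma called 0 of the 6, none had an unadjusted p under 0.05, and 0.106% of all genes were called. The 95% intervals of that difference were within 0.3 of 0 for Serpine2, Serpinb6a, Serpinb9 and Serpinh1 and reached as far as -0.65 for Serpinb2 and 0.61 for Serpinb1a.

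The design also allows a test of whether the step from mOSM to hlOSM matches the step from PBS to mLIF. Both steps bring in LIFR by design, but hlOSM replaced mOSM, and the signal through LIFR was not measured here. With limma 0 of the 6 members other than Serpina3n and Serpinb2 passed, and 1 had an unadjusted p under 0.05, while 0.167% of all genes passed. That gene was Serpinb1a, whose step was smaller from mOSM to hlOSM by 0.81 on the log2 scale (difference of steps -0.81, SE 0.24, adjusted p = 0.177). For Serpina3n the difference of steps was -2.23 (SE 0.33) and for Serpinb2 it was -1.06, both given without a test.

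**Figure D3:**
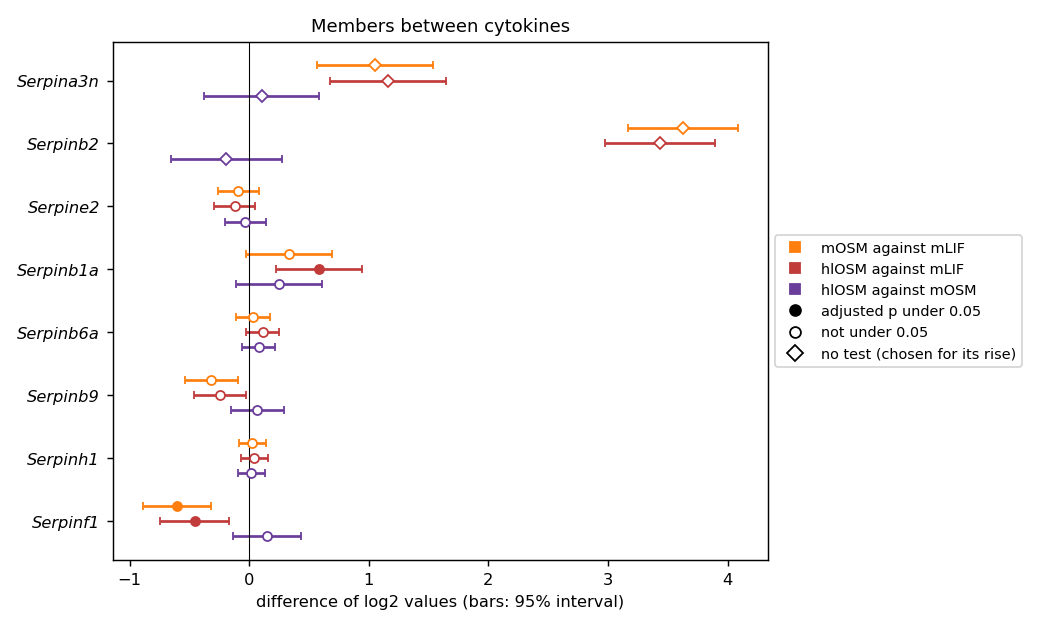
Differences of log2 values between cytokines for the 8 members (points) with 95% intervals (bars). Filled circles mark adjusted p under 0.05, and diamonds mark Serpina3n and Serpinb2, which carry no test. Serpinb2 lies at 3.63 and 3.44 and Serpina3n at 1.05 and 1.16 for the OSM proteins against mLIF, Serpinf1 lies at -0.61 and -0.46, and every interval for hlOSM against mOSM includes 0.

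Levels were compared between members per kilobase of exon. The length was that of the merged exons of all annotated transcripts, for example 8.29 kb for Serpine2 and 2.36 kb for Serpinf1. Which transcripts were expressed was not determined, so the order between members depends on this length. In PBS, Serpinh1 led at 202 ± 5.81 (SD, n = 3) normalized counts per kb, followed by Serpinb1a at 77.7 ± 25.6, Serpinb6a at 58.5 ± 2.38, Serpinb9 at 29.7 ± 2.58, Serpinf1 at 28.7 ± 3.65, Serpine2 at 21.2 ± 2.29, Serpina3n at 15.3 ± 6.93 and Serpinb2 at 3.12 ± 1.37. The libraries of Serpinb1a and Serpinb6a, of Serpinb9 and Serpinf1, and of Serpine2 and Serpina3n overlapped, whereas the other neighbours in this order did not. With mLIF, Serpina3n moved to the third place at 74.3 ± 14.7 per kb, overlapping with Serpinb6a at 64.6 ± 3.67.

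With mOSM, Serpinb1a at 199 ± 40.1 per kb and Serpinh1 at 195 ± 4.10 overlapped at the top, Serpina3n followed at 154 ± 23.8, and Serpinb2 at 77.5 ± 19.4 overlapped with Serpinb6a at 66.2 ± 5.30. With hlOSM, Serpinb1a at 235 ± 28.5 per kb stood above Serpinh1 at 197 ± 4.74 without overlap, and Serpina3n at 168 ± 46.6 overlapped with Serpinh1. The lower places belonged to Serpinf1, Serpinb9 and Serpine2 with either OSM protein. The normalized counts of the 8 members summed to 1376 ± 59.0 in PBS, 1699 ± 106 with mLIF, 2086 ± 176 with mOSM and 2206 ± 175 with hlOSM. Within that sum Serpina3n took 2.28% in PBS, 8.98% under mLIF, 15.2% under mOSM and 15.6% under hlOSM, and Serpinb2 took 0.532%, 0.801%, 8.72% and 7.20%.

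**Figure D4:**
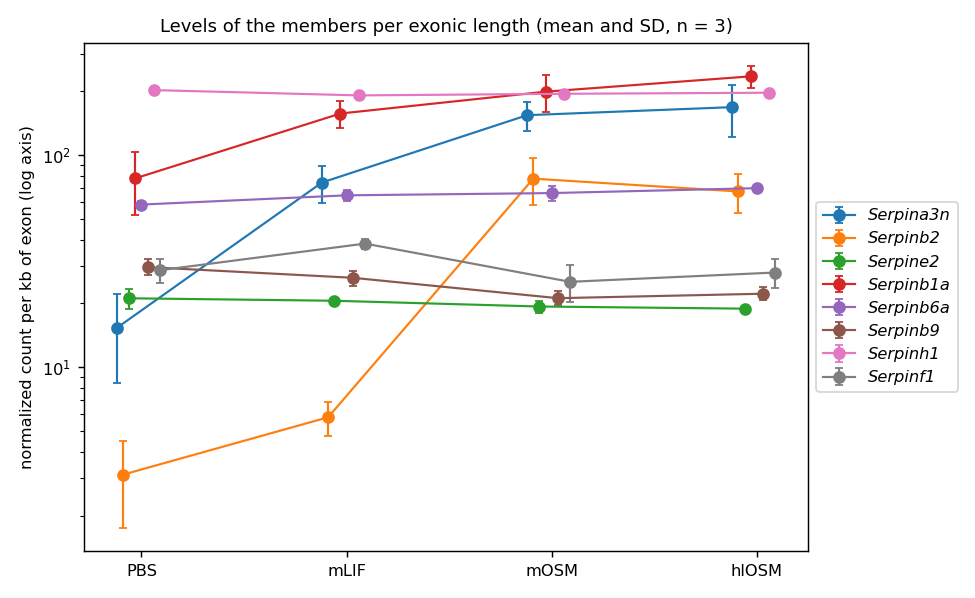
Mean level of each member per kilobase of exon (log axis) in the 4 conditions, with the SD of 3 libraries. Lines join the values of a gene and carry no order in time. Serpina3n and Serpinb2 cross other members between PBS and the OSM proteins, while Serpinh1 stays between 191 and 202.

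Serpin genes lie in clusters, and relatives of the members in the same clusters were read beside them. Chromosome 12 holds 13 of the 35 serpin genes, chromosome 13 holds 9 and chromosome 1 holds 6. Close relatives have similar sequences, and reads that map to several places were excluded by the authors, so that values of Serpina3, Serpinb1, Serpinb6 and Serpinb9 relatives are uncertain to that extent. The 17 serpin genes that were not tested never exceeded 9 normalized counts. Of the 10 tested, mLIF raised 1 and lowered 1, where 5.47% of all genes were raised and 4.44% lowered. mOSM raised 3 and lowered 1 (15.4% and 15.8% of all genes), and hlOSM raised 3 and lowered 2 (18.2% and 19.8%).

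Serpina3i lies 137 kb from Serpina3n in the same cluster and rose with each cytokine to a similar level. Its normalized counts were 10, 13 and 10 in PBS, 30, 25 and 33 under mLIF, 29, 25 and 26 under mOSM and 27, 29 and 30 under hlOSM. The rises were 1.34 on the log2 scale with mLIF (SE 0.18, adjusted p = 0.000116), 1.21 with mOSM (adjusted p = 2.52e-05) and 1.31 with hlOSM (adjusted p = 6.70e-06). Between mOSM and mLIF its difference was -0.13, with a 95% interval from -0.51 to 0.26.

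Serpinb1b, a relative of Serpinb1a 227 kb away, averaged 5.67 ± 1.53 (SD, n = 3) in PBS, 9.67 ± 1.53 with mLIF, 19.7 ± 2.08 with mOSM and 20.0 ± 6.25 with hlOSM. Its log2 differences from PBS were 1.65 with mOSM (SE 0.28) and 1.63 with hlOSM. Serpinb1b entered the test only through 8 libraries of the cytokine conditions that reached the minimum of 10, which favoured a rise, so these values are given without a test although the gene is one of the 3 counted as raised. Serpinb1c, 30.2 kb from Serpinb1a, and Serpinb6b passed no test, nor did Serpina9 and the complement inhibitor Serping1.

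Serpinc1 and Serpini1 fell. Serpinc1, which encodes antithrombin, had 55, 46 and 50 normalized counts in PBS, 31, 30 and 31 under mLIF, 22, 26 and 25 under mOSM and 21, 22 and 23 under hlOSM, and every cytokine library lay below every PBS library. It fell by 0.69 on the log2 scale with mLIF (SE 0.15, adjusted p = 0.00587), by 1.02 with mOSM (adjusted p = 2.07e-05) and by 1.16 with hlOSM (adjusted p = 3.02e-06). Zbtb37 on the other strand covers 34.4% of its exonic bases. The further difference of -0.46 between hlOSM and mLIF (adjusted p = 0.0407) was lost in 11 of 20 alternatives, among them the replicate block (0.134) and each fit without an mLIF or hlOSM library or without PBS replicate 1 or PBS replicate 2.

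Serpini1, the neuroserpin that inhibits tissue plasminogen activator, had 30, 28 and 54 normalized counts in PBS, 24, 29 and 32 under mLIF, 15, 15 and 32 under mOSM and 16, 13 and 3 under hlOSM. It fell by 1.90 on the log2 scale with hlOSM against PBS (SE 0.39, adjusted p = 0.000493) and by 1.57 against mLIF (adjusted p = 0.00656). The third hlOSM library was the lowest, and without it they were -1.25 (adjusted p = 0.00306) and -0.92 (adjusted p = 0.0457). With mOSM against PBS the difference was -0.85 (adjusted p = 0.10, and 0.0187 without hlOSM replicate 3). Serpinb9b, 9.46 kb from Serpinb9, was lower with hlOSM than with mLIF by 0.86 (log2 difference -0.86, adjusted p = 0.0471), a call lost in 11 of 20 alternatives, with the replicate block (0.0824) and without mLIF replicate 2, mLIF replicate 3, mOSM replicate 1 or any of the hlOSM replicates.

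**Figure D5:**
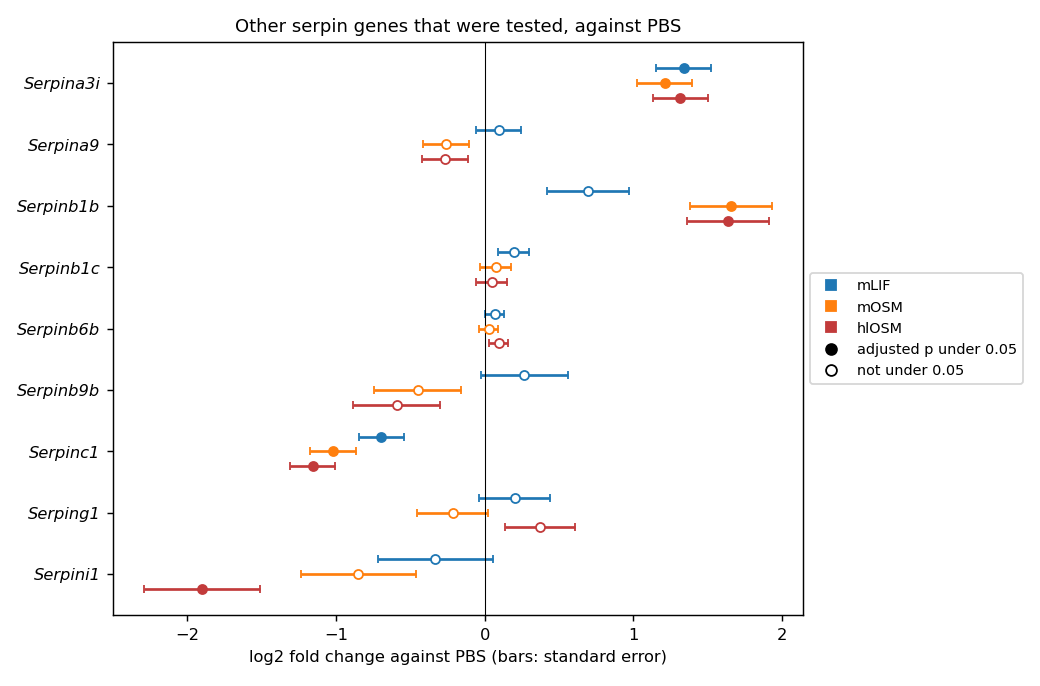
Log2 fold change against PBS with its standard error for 9 of the 10 other serpin genes that were tested. Filled circles mark adjusted p under 0.05. Serpina3i sits near 1.3 with each cytokine, Serpinb1b near 1.65 with the OSM proteins, and Serpinc1 and Serpini1 lie to the left of 0. Serpinb1b reached the minimum only in cytokine libraries, so its filled circles are not to be read as a test.

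The proteases and partners on which these serpins act were read from lists. Of 16 genes of the plasminogen and thrombin system 11 were tested, of which mLIF raised 3 and lowered 0, mOSM raised 4 and lowered 2, and hlOSM raised 4 and lowered 3, with median log2 differences of 0.01, 0.11 and 0.29. Of all genes, 5.47%, 15.4% and 18.2% were raised and 4.44%, 15.8% and 19.8% lowered by mLIF, mOSM and hlOSM. Plg had no row under this symbol in the deposited table, and Vtn, F2, Klkb1 and F10 never exceeded 3 normalized counts. The plasminogen activator genes Plau and Plat passed with no cytokine against PBS (adjusted p from 0.227 to 0.543 and from 0.0594 to 0.321). Thbd, the thrombin receptor thrombomodulin that turns thrombin towards protein C, averaged 96.3 ± 33.7 (SD, n = 3) in PBS and 256 ± 30.7, 749 ± 95.6 and 901 ± 222 with mLIF, mOSM and hlOSM, which were rises of 1.46 (adjusted p = 4.61e-05), 3.01 (adjusted p = 3.37e-11) and 3.25 (adjusted p = 6.80e-12). Thbd is also a gene of endothelial cells, whose summed markers were higher with both OSM proteins than in PBS, and their part in its rise was not tested.

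F2r, the protease-activated thrombin receptor, fell by 1.21 on the log2 scale with mOSM (SE 0.08, adjusted p = 7.09e-11) and by 1.13 with hlOSM (adjusted p = 1.51e-10), from 322 ± 36.4 (SD, n = 3) in PBS to 138 ± 3.21 and 146 ± 3.00. Anxa2 and S100a10, which together form a cell-surface assembly site for plasminogen and its activator, rose by 1.01 and 0.94 with mOSM (adjusted p = 3.14e-06 and 1.77e-05) and by 1.12 and 1.06 with hlOSM (adjusted p = 6.22e-07 and 2.62e-06). Their smaller rises with mLIF of 0.56 (adjusted p = 0.00893) and 0.48 (adjusted p = 0.0299) were lost without PBS replicate 3 (0.0591 and 0.193) or mLIF replicate 3 (0.0584 and 0.0925), and that of S100a10 also without mLIF replicate 1 (0.142).

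Granule proteases, the targets of Serpina3n, Serpinb1a, Serpinb6a and Serpinb9, gave few measurements. Of 11 granule and leukocyte serine proteases, 5 never exceeded 3 normalized counts and 1 was tested. Another 5, among them Ctsg, Elane and Gzmb, had no row under these symbols in the deposited table. Gzmm, the one tested, had 29.0 ± 3.61 (SD, n = 3) in PBS and fell by 0.66 on the log2 scale with mOSM (SE 0.20, adjusted p = 0.0150) and by 0.88 with hlOSM (adjusted p = 0.00136). The call with mOSM was lost with the replicate block (0.0509) and without PBS replicate 1 (0.0743) or mOSM replicate 3 (0.0503).

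All 20 genes that fold and modify collagen beside Serpinh1 were tested, and 2, 4 and 5 of them were raised and 2, 4 and 6 lowered by mLIF, mOSM and hlOSM, with median log2 differences of -0.05, -0.0026 and -0.02. The shares of all genes were 5.47%, 15.4% and 18.2% raised and 4.44%, 15.8% and 19.8% lowered. Sparc, a matrix protein that binds collagen, fell by 0.28, 0.40 and 0.47 on the log2 scale (adjusted p = 0.00800, 4.97e-05 and 4.87e-06), from 627 ± 23.9 (SD, n = 3) to 453 ± 13.1 with hlOSM, and the call with mLIF was lost without mLIF replicate 3 (0.0524). P4ha3, a subunit of the collagen prolyl hydroxylase, averaged 23.7 ± 9.61 in PBS and was at 10 or less in every OSM library, with log2 differences of -2.01 and -1.83 from PBS. It passed the minimum only through its PBS and mLIF libraries, which favoured a fall, so no test is given although it is among the genes counted as lowered. Kdelr2, a receptor that returns proteins such as Serpinh1 to the endoplasmic reticulum, rose by 0.44 and 0.40 with mOSM and hlOSM (adjusted p = 0.000422 and 0.00101). Its rise of 0.32 with mLIF (adjusted p = 0.0207) was lost with the replicate block (0.0551) and without PBS replicate 2 (0.0717), PBS replicate 3 (0.0760) or mLIF replicate 3 (0.127). P3h3, a prolyl hydroxylase, fell by 0.47 with hlOSM (adjusted p = 0.0267), a call lost with the replicate block (0.0598) and without PBS replicate 1, PBS replicate 3 or hlOSM replicate 3.

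Of 5 genes whose products bind the Serpinf1 protein 4 were tested, and mLIF lowered 1, mOSM 2 and hlOSM 2, while 4.44%, 15.8% and 19.8% of all genes were lowered. Plxdc2, a cell-surface receptor for that protein, fell by 0.82 on the log2 scale with mOSM (adjusted p = 1.04e-05) and by 1.08 with hlOSM (adjusted p = 1.58e-07), from 196 ± 33.0 (SD, n = 3) to 92.0 ± 15.0 with hlOSM. Its fall of 0.45 with mLIF (adjusted p = 0.0171) was lost without PBS replicate 3 (0.117), mLIF replicate 1 (0.0686) or mLIF replicate 2 (0.0625). Lrp6, a coreceptor of Wnt signaling, fell by 0.27 and 0.24 with mOSM and hlOSM (adjusted p = 0.000537 and 0.00116).

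The acute-phase genes that move with Serpina3 in liver were mostly too low to be tested or absent by symbol from the deposited table. Of 20 listed, 4 were tested, of which mLIF raised 2, mOSM raised 3 and hlOSM raised 3 and lowered 1, while 5.47%, 15.4% and 18.2% of all genes were raised and 19.8% lowered by hlOSM. Lcn2, an iron-carrier binding protein, averaged 3.00 ± 2.00 (SD, n = 3) in PBS, 10.3 ± 2.52 with mLIF, 19 ± 7.21 with mOSM and 14.3 ± 5.77 with hlOSM. Its log2 differences from PBS were 1.62, 2.40 and 2.01, and with a pseudocount of 5 they were 0.96, 1.57 and 1.26. Lcn2 passed the minimum only through cytokine libraries, which favoured a rise, so no test is given although it is counted among the raised genes. Lbp, which binds lipopolysaccharide, rose by 1.28 and 0.87 with mOSM and hlOSM (adjusted p = 0.000291 and 0.00686). Cp, the copper carrier ceruloplasmin, rose by 0.31, 0.42 and 0.57 with mLIF, mOSM and hlOSM (adjusted p = 0.00226, 1.24e-05 and 1.32e-07), and complement C3 fell by 0.33 with hlOSM (adjusted p = 0.00283).

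For each member, the genes whose log2 values ran most alike over the 12 libraries were taken from 8670 genes with a mean of at least 50. These correlations are a description, since the libraries share 4 conditions and the highest values of many genes were picked. How high r reaches by such a choice alone was not tested, which matters most for Serpinh1 and Serpine2, members that passed no test. For Serpina3n they were Mt2, Star, Pak6, Cd24a and Cnksr1, with Pearson's r from 0.997 to 0.990. For Serpinb2 they were Igfbp3, Il4ra, Cblb, Adamts4 and Abi3bp, with r from 0.990 to 0.985, and for Serpinb1a Ankrd10, Card14, Gm13889, Lrp8 and Ahr, with r from 0.992 to 0.990. None of the genes named for Serpina3n was named for Serpinb2 or Serpinb1a. Serpinb6a ran with E230013L22Rik, Tspan4, Ccdc25, Rack1 and Rps16 at r from 0.972 to 0.946, and Serpinb9 with Ppp1r26, Myh10, Zc3h6, Utrn and Anxa3 at r from 0.961 to 0.941. Serpinf1 ran with Ndufa7, Tcta, Slc35f5 and Ddx6 at r from 0.928 to 0.901, Serpine2 with Gm12655, Ephx2, Tbccd1, Trappc9 and Echdc2 at r from 0.926 to 0.902, and Serpinh1 with Ints6, Ern1, Mia2, Rbbp8 and Dnajc3 at r from 0.900 to 0.863.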

How the data were processed

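RNA of cardiomyocytes was processed by the authors with Trimmomatic 0.39, STAR 2.7.7a on mm10 and featureCounts 1.6.5, with reads on several genes or places excluded. The deposited values are scores: counts normalized between libraries by the authors, by a method not given in the sources used here, and rounded to whole numbers. They carry no depth, so no counting error was attached and read-count models were not used. Tests were run with limma 3.58.1 (trend) in R 4.3.3 on log2(value + 1), with the 4 conditions in 1 fit, on 13184 genes that reached 10 in 3 or more libraries. P-values were two-sided, adjusted after Benjamini and Hochberg over all genes tested, and called under 0.05. A fold change on this scale understates the change of low genes. The fit was tested on simulated data.

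Members and lists were chosen with earlier results of these data known, and the planned tests between cytokines were not used for Serpina3n and Serpinb2. Named genes were the members, other serpins past the threshold in any pairwise comparison, and from each list up to 4 genes past the threshold with mOSM or hlOSM, those with the largest change with hlOSM. Likeness named 5 genes per member. Of the table's 22915 genes, 22876 were found in GENCODE M21, used for exonic lengths and overlaps. Promoter windows came from RefSeq. Alternatives were pseudocounts of 0.1 and 5, no filter or a minimum of 50, rescaling by trimmed means of M-values (factors from 0.974 to 1.02), quantile normalization, a robust fit, the replicate number as a block, only the libraries compared, and leaving out each library. A serpin counted among those tested and a gene named by likeness are not reported here.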

Additional observations from a re-analysis of the deposited data

How the results depend on the processing

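Of 2650 values recomputed under the alternatives for 129 differences of single genes, 2535 kept their side of the threshold, 92 lost it and 23 gained it. Serpinb1b, P4ha3 and Lcn2, for which no test is given, are among these genes. Genes other than the members were included because they had passed the threshold. The share kept therefore describes these genes only and does not measure the stability of all results. Changes of sign among differences that did not pass were not counted apart. The number of tested members past the threshold with mLIF against PBS was 1 and became 2 with a minimum of 50 or with only the libraries compared, and it ranged from 1 to 2 when a library was left out (2 without PBS replicate 1, mOSM replicate 2 or hlOSM replicate 3), Serpinf1 being the gene gained. With mOSM against mLIF it was 1 and became 2 with quantile normalization (Serpinb9 gained) or with only the libraries compared (Serpinb1a gained), and it ranged from 1 to 2 when a library was left out (2 without PBS replicate 3 or hlOSM replicate 3). With hlOSM against mLIF it was 2 and became 1 in the robust fit and with the replicate block, and it ranged from 0 to 2 when a library was left out (0 without mLIF replicate 1, and 1 without any other mLIF or hlOSM library). The difference of 0.10 in Serpina3n between hlOSM and mOSM, which carries no test, ranged from -0.11 to 0.23 when a library was left out (-0.02 without mOSM replicate 1, -0.11 without hlOSM replicate 3 and 0.23 without hlOSM replicate 1). The cause was not tested. With mOSM against PBS the count of members lost Serpinb6a in 14 of 21 alternatives, 10 of them fits that leave out a library. The other counts of members stayed within 1.5 times their value.

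Same-numbered libraries did not deviate alike: their deviations correlated from -0.407 to -0.151 over 18 pairs. Of 12 libraries, 0 correlated best with its own number. Replicate number held 1.70% of the variance within conditions, where 25.0% stands for no effect of the number. The deviations were thus not independent of the number, and the cause was not tested. The fit without a block took no account of this. With the replicate block the counts of members were 1, 2 and 3 with mLIF, mOSM and hlOSM against PBS, 1 with mOSM and 1 with hlOSM against mLIF, 0 with hlOSM against mOSM, and 0 for the difference of steps. Over all genes the block left 5.95%, 25.3% and 31.2% called against PBS, 8.81% and 12.2% against mLIF and 0.0152% for hlOSM against mOSM.

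With 3 libraries per condition and no known depth, differences of low genes such as Serpinb1b, Serpini1 and Serpinb9b rest on few units of the normalized scale.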
